A study of Mus musculus with 65 samples.

Results

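The genes described here are 9 transcripts of the neuronal cytoskeleton and the axon: the neurofilament subunits Nefl, Nefm and Nefh, the related filament gene Ina, and Mapt, Gap43, Stmn2, Thy1 and Uchl1. They were taken by name from the 49670 gene IDs of the count table, and all 9 were measured and tested in every comparison. RNA was sequenced in 65 libraries of cerebellum, medulla and pons from C57BL/6J mice that were wild type or carried the knockin allele Atxn1[82Q], a model of spinocerebellar ataxia in which the altered gene sits at its own locus. All wild type mice had received vehicle, and knockin mice had received either vehicle or an ASO, an antisense oligonucleotide directed at Atxn1. Wild type with vehicle, knockin with vehicle and knockin with ASO held 4, 4 and 4 libraries in cerebellum at 18 weeks of age, 3, 3 and 3 in medulla at 18 weeks, 3, 3 and 3 in pons at 18 weeks, 4, 4 and 4 in pons at 28 weeks, and 8, 8 and 7 in medulla at 28 weeks. Medulla at 28 weeks came in 2 labelled batches. The sources used here do not give the dose, route or timing of the ASO. The table's column names carry a number that is distinct for each library of a region and age, and 21 of 38 such numbers recur across regions. The labels do not say whether that number names a mouse, so p-values reflect only the variation among libraries, which may be technical, and libraries of different regions may not be independent.

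Neurofilaments are the intermediate filaments of neurons. The light (Nefl), medium (Nefm) and heavy (Nefh) chains assemble together with alpha-internexin (Ina), fill large myelinated axons and set their calibre, so they are abundant in hindbrain nuclei and tracts with large projection neurons. Tau (Mapt) binds axonal microtubules, stathmin-2 (Stmn2) binds tubulin and acts in axon growth and maintenance, GAP-43 (Gap43) is a membrane protein of growth cones and presynaptic endings, Thy1 is a surface glycoprotein of neurons, and Uchl1 is an abundant neuronal ubiquitin hydrolase.

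The libraries held 49.2 to 119.1 M counts (median 77.0 M), and the lowest count of any of the 9 genes in a library was 7027. Region labels were checked with markers: 12 Purkinje cell genes summed to between 12571 and 13841 CPM (counts scaled by library size to a shared total) in wild type cerebellum and to between 1736 and 2763 CPM in wild type medulla and pons. Atxn1, the knocked-in and targeted gene, was higher in knockin than in wild type in cerebellum (exact two-sided permutation test, p = 0.029), in medulla at 28 weeks (permutation within batches, p = 0.00041) and in pons at 28 weeks (exact permutation, p = 0.029). Adjusted over all genes in edgeR, the difference was called in medulla at 28 weeks (adjusted p = 0.011) and not in cerebellum (0.62) or in pons at 28 weeks (0.15). The exact permutation p was 0.1 in medulla and 0.4 in pons at 18 weeks. With 20 arrangements 0.1 is the lowest p possible. Medulla at 18 weeks held 43.6 to 49.8 CPM in vehicle knockin and 15.3 to 35.4 CPM in wild type. The permutation p of 0.029 and 0.00041 are likewise the lowest that their 70 and 4900 arrangements allow. Mean Atxn1 was lower in every ASO group than in vehicle knockin. Exact permutation gave p = 0.029 in cerebellum and, at 28 weeks, 0.0053 in medulla (within batches) and 0.057 in pons. At 18 weeks it gave 0.1 in medulla, again the lowest p possible (ASO 13.5 to 39.0 CPM), and 0.4 in pons. In edgeR that difference was called only in medulla at 28 weeks (adjusted p = 0.027). The highest ASO library there held 49.4 CPM, where vehicle knockin held 40.5 to 48.3 CPM. In medulla and pons at 18 weeks the library labelled ASO replicate 2 held more Atxn1 (39 and 51 CPM) than the library labelled wild type replicate 3 (15.3 and 16.5 CPM), which goes against both labels. Other libraries stood apart too: 4 of medulla at 28 weeks (wild type 5, vehicle knockin 8, ASO 6 and ASO 7) held 32.8 to 41.4 CPM over 17 Hox genes of the caudal hindbrain, where the other medulla libraries of that age held 123 to 438 CPM and pons held 16.1 to 64.6 CPM. Vehicle knockin replicate 4 of pons at 28 weeks was above the 3 other vehicle knockin libraries in Hox genes (55.6 CPM beside 16.1 to 21.2 CPM) and in the mean log2 level of myelin genes (8.63 beside 8.11 to 8.19). Vehicle knockin replicate 2 of medulla at 28 weeks, in batch 1, lay furthest from its group over all genes. The chi-square per gene between 2 libraries was 240 to 355 for its pairs and 14.2 to 87.4 for the other pairs of that group.

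On GRCm38 with GENCODE vM21, Nefl (ENSMUSG00000022055, chromosome 14, 68083863 to 68089095, plus strand) lies within the annotated span of Nefm (ENSMUSG00000022054, chromosome 14, 68082590 to 68124846, minus strand). Their annotated exons share 1108 bases on opposite strands. Nefh (ENSMUSG00000020396) lies on chromosome 11 from 4938754 to 4948064 on the minus strand, and Ina (ENSMUSG00000034336) on chromosome 19 from 47014698 to 47025327 on the plus strand, where it shares 456 exonic bases with Nt5c2. Mapt (ENSMUSG00000018411, chromosome 11, 104231390 to 104332090, plus), Gap43 (ENSMUSG00000047261, chromosome 16, 42248442 to 42340651, minus) and Stmn2 (ENSMUSG00000027500, chromosome 3, 8509360 to 8561606, plus) complete the cytoskeletal and growth genes. Thy1 (ENSMUSG00000032011) lies on chromosome 9 from 44043384 to 44048579 and Uchl1 (ENSMUSG00000029223) on chromosome 5 from 66676091 to 66687234, both on the plus strand. Uchl1 shares 295 exonic bases with its antisense gene Uchl1os, whose counts were 0.0307% of those of Uchl1. The sources used here do not say whether counting used strand, so reads in the shared bases of Nefl and Nefm, and of Ina and Nt5c2, are of uncertain origin.

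Promoter sequences from RefSeq (GRCm38.p6, 250 bases before to 50 after the gene start) were matched for 2 of the 9 genes, Ina and Uchl1. They are shown because ataxin-1 works with the repressor Capicua, and because the pair differ in base composition. Capitals mark the letters of GC boxes, GGGCGG on either strand.
Ina (chr19:47014431-47014730, plus strand): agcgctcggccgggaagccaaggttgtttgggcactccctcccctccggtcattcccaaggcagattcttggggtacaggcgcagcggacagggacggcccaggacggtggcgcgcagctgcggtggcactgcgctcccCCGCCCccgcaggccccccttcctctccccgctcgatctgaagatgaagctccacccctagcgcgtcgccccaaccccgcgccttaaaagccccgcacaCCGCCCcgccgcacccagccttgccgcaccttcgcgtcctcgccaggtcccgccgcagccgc
Uchl1 (chr5:66675871-66676170, plus strand): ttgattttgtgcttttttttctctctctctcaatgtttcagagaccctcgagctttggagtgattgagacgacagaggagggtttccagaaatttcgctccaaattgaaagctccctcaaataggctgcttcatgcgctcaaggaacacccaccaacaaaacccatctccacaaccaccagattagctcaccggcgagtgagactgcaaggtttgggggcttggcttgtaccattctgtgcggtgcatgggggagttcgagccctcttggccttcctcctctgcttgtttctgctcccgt
The motifs searched on both strands were the Capicua octamers TGAATGAA and TGAATGGA, the TATA core TATAAA, and the GC box GGGCGG. The Ina window was 71.7% G or C and held the GC box at bases 140 to 145 and 239 to 244, both on the minus strand. The Uchl1 window was 50.7% G or C and held no match to any of the 4 motifs. Over 32851 promoter windows of the same length the median was 52.7% G or C, and the motifs were present in 1.30% (TGAATGAA), 1.21% (TGAATGGA), 13.6% (TATAAA) and 35.7% (GGGCGG) of them. A match describes letters and does not show a bound site.

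In wild type tissue the neurofilament subunits and Uchl1 were several-fold lower in cerebellum than in the brainstem, while Mapt was at nearly the same level in every region. Levels that compare genes are given per length, as RPKM, the CPM divided by exon length in kilobases (mean ± SD over wild type libraries). In medulla at 28 weeks Uchl1 (448 ± 43.4 RPKM, n = 8) and Nefl (441 ± 40.8 RPKM, n = 8) were highest and did not differ beyond their spread. Thy1 followed at 247 ± 14.3 RPKM, then Nefm at 187 ± 20.5 RPKM, Nefh at 173 ± 10.1 RPKM and Gap43 at 151 ± 19.3 RPKM. In that run the spreads of neighbours from Nefm to Gap43 overlapped. Ina (124 ± 4.59 RPKM), Stmn2 (94.8 ± 6.87 RPKM) and Mapt (73.2 ± 3.37 RPKM) closed the order, each separated from the next by more than the spread. The SD covers variation between libraries only. Exon length was joined over all annotated transcripts of a gene (12 for Mapt, 4 for Stmn2), so the order also depends on that length.

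Pons at 28 weeks (n = 4) kept Uchl1 (404 ± 12.1 RPKM) and Nefl (325 ± 10.7 RPKM) on top, here separated from each other. Thy1 was at 221 ± 7.86 RPKM and Gap43 at 175 ± 16.7 RPKM, and Nefm (137 ± 6.81 RPKM) and Nefh (124 ± 7.62 RPKM) overlapped in spread, as did Nefh and Ina (115 ± 2.34 RPKM). Stmn2 (83.1 ± 2.22 RPKM) and Mapt (77.6 ± 4.62 RPKM) were lowest and also overlapped. The order in cerebellum (n = 4) was another one: Thy1 (120 ± 5.12 RPKM) and Stmn2 (99.5 ± 2.02 RPKM) led, and Gap43 (79.9 ± 2.26 RPKM), Nefl (72.7 ± 5.68 RPKM), Mapt (72.2 ± 2.08 RPKM), Ina (68.9 ± 3.17 RPKM) and Uchl1 (64.1 ± 5.74 RPKM) formed a chain of overlapping neighbours. Nefh (30.6 ± 1.55 RPKM) and Nefm (24.6 ± 2.87 RPKM) were lowest. All cerebellum libraries were of 18 weeks of age. Ina made up 35.1 ± 1.78% of the summed RPKM of the 4 filament subunits in cerebellum. Its share at 18 weeks was 14.4 ± 0.67% in medulla and 16.1 ± 4.10% in pons (n = 3 each). At 28 weeks it was 13.5 ± 1.23% in medulla and 16.4 ± 0.35% in pons.

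**Figure D1:**
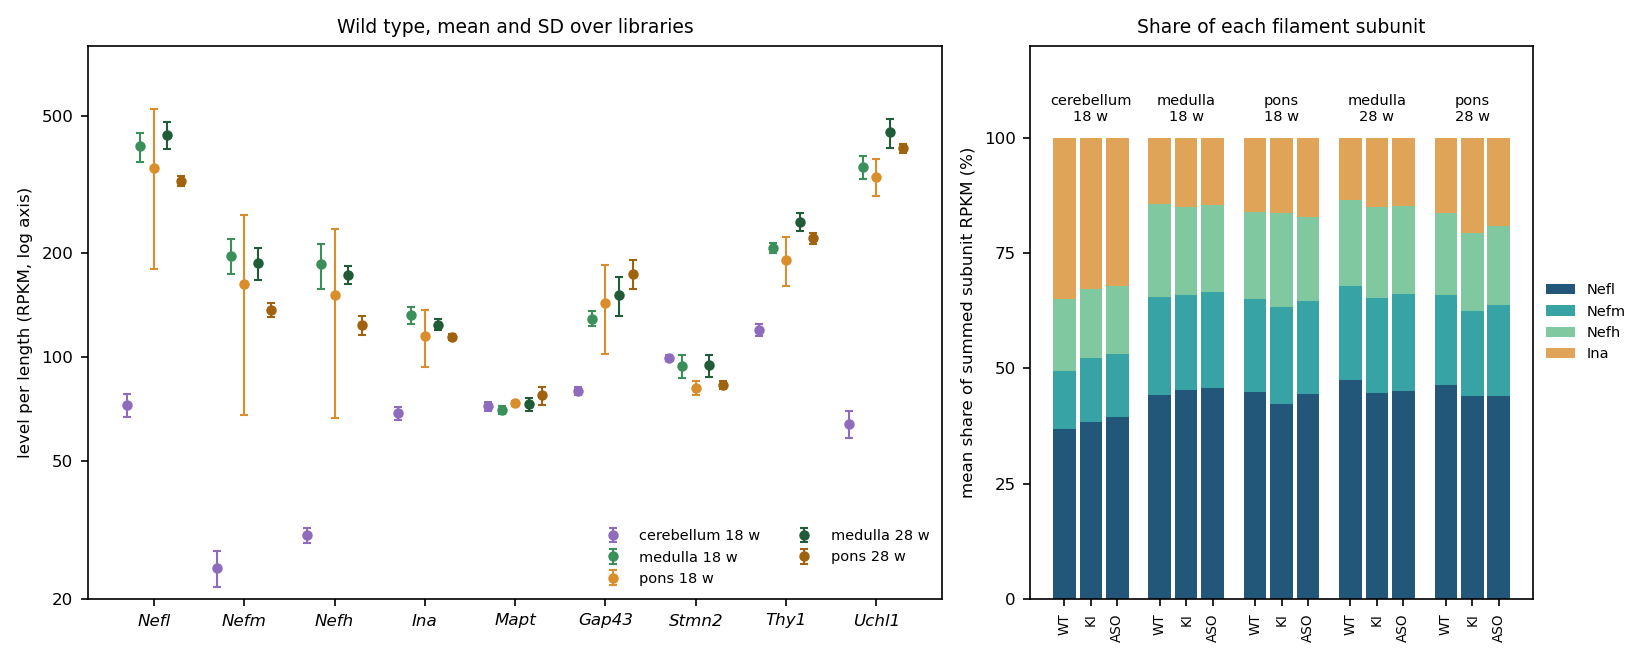
Left: RPKM (log axis) of each gene in wild type libraries of each region and age, as the mean (point) and SD (bar). Right: mean share in percent of each of the 4 filament subunits in their summed RPKM, for wild type (WT), vehicle knockin (KI) and ASO knockin (ASO). In cerebellum Nefl, Nefm, Nefh and Uchl1 sit well below the brainstem points, Mapt stays between 70.3 and 77.6 RPKM, and the Ina share is 35.1% in wild type cerebellum.

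The regional contrast was tested between wild type libraries at 18 weeks (edgeR quasi-likelihood test, Benjamini-Hochberg adjusted over all genes, called at an adjusted p under 0.05). Nefl measured 254, 217, 256 and 256 CPM in the 4 cerebellum libraries and 1257, 1521 and 1361 CPM in the 3 medulla libraries. The regions did not overlap, and Nefl was 5.72-fold lower in cerebellum (log2 difference -2.52 ± 0.26 SE, adjusted p = 1.4e-05). Nefm was 8.18-fold lower, Nefh 6.2-fold and Uchl1 5.64-fold. Smaller differences in the same direction were called for Ina (1.96-fold), Thy1 (1.76-fold) and Gap43 (1.65-fold). In all, 7 of 9 genes were lower in cerebellum than in medulla, where 59.2% of all genes tested were called. Against pons the same 7 were lower and Stmn2 was 0.26 higher on the log2 scale (adjusted p = 0.013), with 56.1% of all genes called. Mapt was called in neither. With the column-name number shared across regions as a block, a fit chosen after seeing the data, Gap43 was no longer called in either comparison, nor Stmn2 against pons. The only number that wild type cerebellum shared with medulla and pons was that of cerebellum replicate 3 and of replicate 2 in the others. Both contrasts rested on that number, so the fit cannot show what pairing does to these calls.

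Between medulla and pons of wild type mice at 18 weeks none of the 9 genes was called by edgeR or DESeq2, 1 (Stmn2) had an unadjusted p under 0.05 in edgeR, and 0.833% of all genes were called. Pons wild type replicate 2 held 1856 CPM of Nefl beside 762 and 961 CPM in the other two. Without it Nefl, Nefm and Nefh were higher in medulla (log2 0.68, 0.84 and 0.83) and Gap43 lower (-0.37). Over the fits that each left out 1 library, from 93 to 482 of all genes were called in this comparison. At 28 weeks 4 of 9 genes were higher in medulla than in pons, where 10.9% of all genes were called. They were Nefl (log2 difference 0.43 ± 0.06, adjusted p = 0.0051), Nefm (0.44 ± 0.08), Nefh (0.47 ± 0.05) and Stmn2 (0.18 ± 0.05, adjusted p = 0.041). With medulla batch 1 alone 7 were called, 6 higher and Gap43 lower in medulla. Without the libraries low in Hox genes the same 4 were called and Thy1 in addition (0.17, adjusted p = 0.0056).

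In pons at 28 weeks the 3 neurofilament chains were 1.53- to 1.56-fold lower in vehicle knockin than in vehicle wild type, and the other 6 genes were not called. Nefl measured 1118, 1135, 1053 and 1087 CPM in wild type and 697, 637, 648 and 858 CPM in vehicle knockin. The groups did not overlap, and replicate 4 was the highest of the knockin libraries. The log2 difference was -0.63 ± 0.10 (SE; 1.55-fold lower, adjusted p = 0.0026). Because these are bulk samples, fewer cells of a type and less RNA per cell cannot be told apart.

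Nefm, the medium chain, measured 754, 783, 792 and 848 CPM in wild type and 509, 460, 456 and 618 CPM in vehicle knockin. All knockin libraries lay below all wild type libraries, with a 1.56-fold lower level (log2 -0.64 ± 0.13, adjusted p = 0.014). Nefh, the heavy chain, measured 472, 486, 483 and 540 CPM in wild type and 312, 268, 285 and 431 CPM in vehicle knockin. These groups did not overlap either, and Nefh was 1.53-fold lower (log2 -0.61 ± 0.16, adjusted p = 0.035). Its call was lost under 11 of 17 alternatives, where the adjusted p reached 0.10, whereas Nefl and Nefm were called under all 17. So 3 of 9 genes were called, all lower, against 9.79% of all genes called and 5.65% called lower. The same 3 were the members whose groups did not overlap, which held for 15.1% of all genes.

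Alpha-internexin, their assembly partner, was not called in pons. Ina measured 377, 364, 366 and 379 CPM in wild type and 309, 304, 288 and 374 CPM in vehicle knockin. Knockin replicate 4 reached into the wild type range, and the difference of -0.22 ± 0.07 on the log2 scale was not called (adjusted p = 0.072). As a share of the 4 subunits, Ina was 16.7, 15.9, 16.5 and 16.2% in wild type and 20.4, 21.9, 20.7 and 19.8% in vehicle knockin. The summed subunit level was 701 ± 16.0 RPKM in wild type and 478 ± 73.0 RPKM in vehicle knockin (n = 4 each).

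The 5 remaining genes were not called in pons either. Tau (Mapt) measured 592, 537, 621 and 589 CPM in wild type and 570, 608, 585 and 549 CPM in vehicle knockin, groups that overlapped throughout, with a log2 difference of -0.02 (adjusted p = 0.86). Gap43 differed by 0.05 (adjusted p = 0.77), Stmn2 by -0.07 (0.35), Thy1 by -0.09 (0.26) and Uchl1 by -0.11 (0.35). Without vehicle knockin replicate 4, 7 of 9 genes were called lower: Nefl (-0.75), Nefm (-0.75), Nefh (-0.79), Ina (-0.32, adjusted p = 0.0013), Stmn2 (-0.12), Thy1 (-0.15) and Uchl1 (-0.22). The count over all genes rose from 2002 to 4259 in that fit. Mapt and Gap43 were not called with or without that library.

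Cell type markers moved with the genotype in pons. Of 11 cholinergic motor neuron genes tested, 7 were lower (median log2 difference -1.18), and the list of 12 summed to between 112 and 166 CPM in wild type, 47.7 and 75.3 CPM in vehicle knockin and 81.9 and 146 CPM in ASO knockin. Chat, which makes acetylcholine, was at 16.9 ± 3.53 CPM in wild type and 7.57 ± 0.92 CPM in vehicle knockin. Of 13 oligodendrocyte genes 8 were lower, with sums of 17556 to 18841 CPM in wild type and 10751 to 16007 CPM in vehicle knockin. Of 11 pan-neuronal genes 4 were lower (median -0.07), with sums of 7439 to 7790 CPM in wild type and 6650 to 7309 CPM in vehicle knockin, and serotonergic and noradrenergic genes were lower for 8 of 11 and astrocyte genes for 6 of 11. No gene of these lists was at 0 in any group. Their part in the neurofilament differences was not tested.

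In medulla at 28 weeks Nefl, Nefm, Nefh and Gap43 were 1.14- to 1.29-fold lower in vehicle knockin, and none of the 9 genes was called higher. Nefl ranged from 1222 to 1621 CPM in the 8 wild type libraries (median 1523 CPM) and from 1009 to 1247 CPM in the 8 vehicle knockin libraries (median 1150 CPM). The groups overlapped through wild type replicate 5, the lowest of its group and one of the libraries low in Hox genes. Nefl was 1.29-fold lower (log2 -0.37 ± 0.06, adjusted p = 8.3e-05) and was called under all 32 alternatives, with adjusted p from 1.4e-08 to 0.012. Within batch 1 it measured 1587 ± 47.1 CPM in wild type and 1151 ± 102 CPM in vehicle knockin, and within batch 2 1394 ± 132 and 1148 ± 17.7 CPM (SD, n = 4 each).

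Nefm ranged from 872 to 1259 CPM in wild type (median 1094 CPM) and from 787 to 999 CPM in vehicle knockin (median 931 CPM), and was 1.19-fold lower (log2 -0.25 ± 0.06, adjusted p = 0.0033). Nefh ranged from 639 to 748 CPM (median 679 CPM) and from 519 to 676 CPM (median 597 CPM), and was 1.14-fold lower (log2 -0.19 ± 0.05, adjusted p = 0.011). Both sets of groups overlapped. Within batches the direction was the same, but neither gene was called in a single batch: Nefm differed by -0.32 in batch 1 (adjusted p = 0.061) and by -0.18 in batch 2 (0.083), and Nefh by -0.25 (0.11) and -0.14 (0.14).

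Gap43, the growth cone gene, ranged from 200 to 281 CPM in wild type (median 229 CPM) and from 131 to 231 CPM in vehicle knockin (median 193 CPM). It was 1.22-fold lower (log2 -0.29 ± 0.08, adjusted p = 0.011), and was called in batch 2 alone (-0.32, adjusted p = 0.0053) but not in batch 1 alone (-0.26, adjusted p = 0.34). The wild type level itself differed between batches, at 211 ± 20.6 CPM in batch 1 and 249 ± 25.4 CPM in batch 2.

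Together 4 of 9 were called, all lower, against 19.3% of all genes called and 9.99% called lower. None of the 9 had groups that did not overlap, which 2.93% of all genes had. Of the other 5, Mapt (log2 -0.14, adjusted p = 0.053) and Thy1 (-0.11, 0.086) were nearest the threshold, and Ina (-0.12, 0.12), Uchl1 (-0.13, 0.16) and Stmn2 (-0.07, 0.4) were further from it. The median difference of the 9 was -0.14, beside 0.01 over all genes tested. Without the 4 libraries low in Hox genes the same 4 genes were called and Thy1 in addition (-0.12, adjusted p = 0.034), and Nefl differed by -0.40.

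Markers of other cells also moved in medulla. Oligodendrocyte genes were lower for 10 of 13 (median -0.37), with sums of 19363 to 25599 CPM in wild type and 13861 to 19955 CPM in vehicle knockin, astrocyte genes for 8 of 11 and serotonergic and noradrenergic genes for 9 of 11. Of 11 pan-neuronal genes 3 were lower (median -0.10), with sums of 7652 to 8156 CPM in wild type and 6024 to 7560 CPM in vehicle knockin. Motor neuron genes split, with 1 higher and 1 lower of 12, and sums of 101 to 260 CPM in wild type and 125 to 321 CPM in vehicle knockin. No gene of these lists was at 0. Their part in the differences of the 9 genes was not tested.

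**Figure D2:**
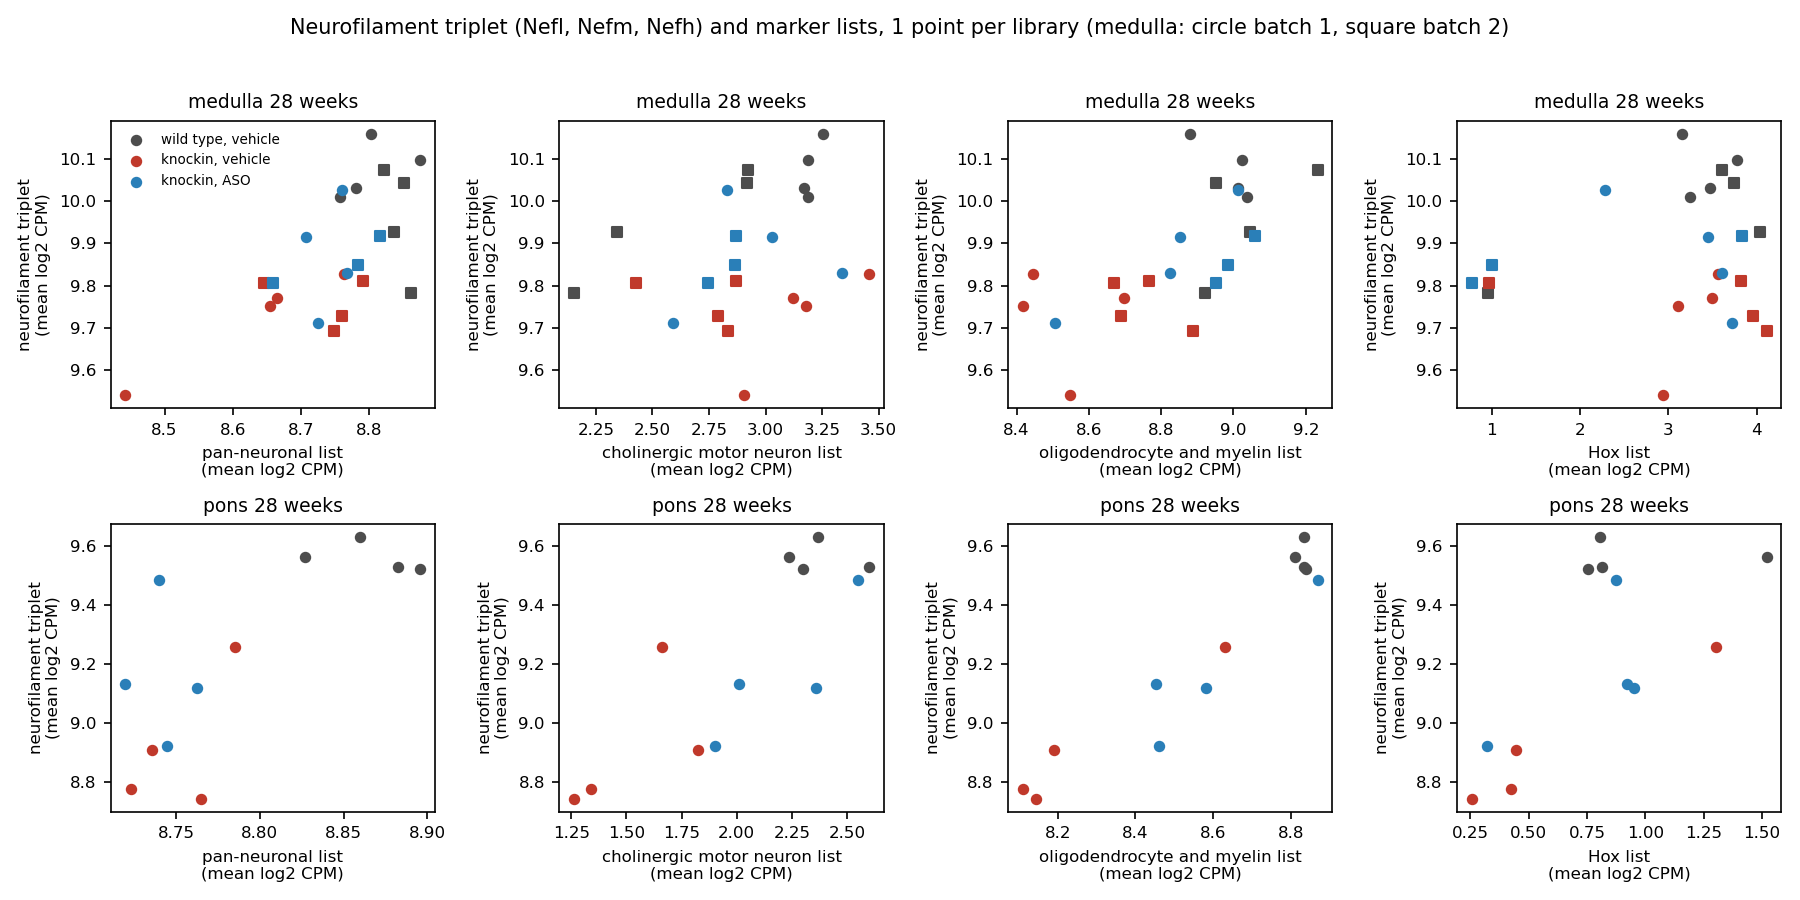
Mean log2 CPM of Nefl, Nefm and Nefh (vertical) against the mean log2 CPM of 4 marker lists (horizontal), 1 point per library, for medulla (top, circles batch 1 and squares batch 2) and pons (bottom) at 28 weeks. In pons the 4 vehicle knockin libraries lie below the 4 wild type libraries on the vertical axis and also to their left for the motor neuron, pan-neuronal and oligodendrocyte lists, with knockin replicate 4 nearest to wild type in the triplet.

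In cerebellum at 18 weeks, where Purkinje cell genes were lower in vehicle knockin (8 of 12 called), none of the 9 genes was called by edgeR or DESeq2, 4 had an unadjusted p under 0.05 in edgeR, and 2.71% of all genes were called. Nefl overlapped between genotypes: 254, 217, 256 and 256 CPM there and 243, 233, 235 and 280 CPM in vehicle knockin, with a log2 difference of 0.02 ± 0.11. Nefm (0.11 ± 0.14) and Nefh (-0.10 ± 0.10) did not separate from wild type either. Among the other genes, 5 had groups that did not overlap, a property of 18.0% of all genes. Uchl1 measured 107, 93.6, 102 and 116 CPM in wild type and 150, 159, 134 and 180 CPM in vehicle knockin, all knockin libraries being higher. The fold was 1.49 (log2 0.58 ± 0.23), with an adjusted p of 0.25.

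Gap43 showed the same arrangement, with 119, 118, 126 and 123 CPM in wild type and 157, 148, 131 and 151 CPM in vehicle knockin (log2 0.27 ± 0.12, adjusted p = 0.34). Thy1 had the opposite one, with 355, 341, 376 and 368 CPM in wild type and 296, 280, 282 and 315 CPM in vehicle knockin (log2 -0.29 ± 0.10, adjusted p = 0.17). Ina (-0.13) and Stmn2 (-0.15) also lay below wild type in every vehicle knockin library. Fitted with the ASO libraries of the third group left out, these 5 genes were called, with adjusted p of 0.0039 for Uchl1, 0.0022 for Gap43, 0.0014 for Thy1, 0.042 for Ina and 0.039 for Stmn2, in a fit that called 3161 genes instead of 552. Leaving out ASO replicate 3 alone called Uchl1, Thy1 and Gap43 (adjusted p = 0.0039, 0.0073 and 0.033). That library held the lowest Atxn1 of its group, at 19.8 CPM, and lay furthest from the group over all genes. Over the fits that each left out 1 library, from 277 to 2914 of all genes were called. Purkinje cell genes summed to between 6997 and 8501 CPM in vehicle knockin against 12571 to 13841 CPM in wild type, and their part in these values was not tested.

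At 18 weeks neither medulla nor pons gave a call by edgeR for any of the 9 genes in any of the 3 contrasts, and 0.0% of all genes were called. Unadjusted p under 0.05 was reached by 1121 genes in medulla and 2414 genes in pons for vehicle knockin against wild type, and DESeq2 called 14 and 13 genes, among them 0 of the 9. None of the 9 had an unadjusted p under 0.05 in edgeR, and 0 were called without the libraries in which Atxn1 went against the label. In medulla Nefl measured 1257, 1521 and 1361 CPM in wild type and 1348, 1412 and 1308 CPM in vehicle knockin, nested ranges with a difference of -0.03 ± 0.09. Differences of the 9 genes between vehicle knockin and wild type ran from -0.13 (Nefh) to 0.14 (Uchl1). Thy1 alone had groups that did not overlap (11.5% of all genes did): 639, 624 and 600 CPM in wild type and 668, 644 and 662 CPM in vehicle knockin.

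Pons at 18 weeks had wide spreads for the neurofilament chains. Wild type replicate 2 held 1856, 1568 and 982 CPM of Nefl, Nefm and Nefh, whereas the other two wild type libraries held 762 and 961, 514 and 754, and 326 and 507 CPM. Vehicle knockin lay between, at 1001, 1221 and 1118 CPM for Nefl. The standard errors of the log2 differences were 0.28 to 0.35 for these 3 genes, against 0.10 to 0.16 in pons at 28 weeks, and the difference for Nefl was -0.08. Gap43 ran the other way in the same library, at 146 CPM beside 262 and 246 CPM.

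Neither edgeR nor DESeq2 called a difference between ASO and vehicle within knockin for any of the 9 genes, in any region or age. In edgeR an unadjusted p under 0.05 was reached by 2 of the 9 in medulla at 28 weeks (Nefl and Nefm), 1 in pons at 28 weeks (Nefm), 1 in cerebellum (Stmn2) and 0 at 18 weeks in medulla and pons. In the larger medulla set at 28 weeks, where 1.69% of all genes were called, the differences (ASO minus vehicle) ran from -0.01 for Uchl1 to 0.15 ± 0.06 for Nefm (adjusted p = 0.27), and Nefl differed by 0.13 ± 0.06 (adjusted p = 0.35). Nefl ranged from 1092 to 1383 CPM in the 7 ASO libraries (median 1259 CPM), overlapping both vehicle knockin and wild type. Of 13 oligodendrocyte genes 6 and of 11 astrocyte genes 7 were higher with ASO in the same comparison, and none of 11 pan-neuronal genes was called. Without the libraries low in Hox genes none of the 9 was called either, with Nefm at 0.20 (adjusted p = 0.17) and Nefl at 0.16 (0.31).

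In pons at 28 weeks 0.0929% of all genes were called between ASO and vehicle. Nefl measured 969, 786, 791 and 730 CPM with ASO, between the vehicle knockin and wild type values but for the overlap with vehicle knockin replicate 4 at 858 CPM, and the difference was 0.21 ± 0.10 (adjusted p = 0.35). Nefm differed by 0.30 ± 0.13 (adjusted p = 0.33) and Nefh by 0.23 ± 0.16 (adjusted p = 0.53). Without vehicle knockin replicate 4 the differences were 0.33 for Nefl (adjusted p = 0.070), 0.42 for Nefm (0.13) and 0.42 for Nefh (0.12), and none of the 9 was called. ASO replicate 1 was the highest of its group for Nefl, Nefm (808 CPM), Nefh (470 CPM) and Ina (375 CPM), and its Atxn1 level of 25.9 CPM was the lowest of the group. These are values of 1 library, and a relation of the subunits to the Atxn1 level was not tested. In cerebellum (0.0491% of all genes called) the largest differences were 0.29 ± 0.12 for Stmn2 and 0.25 ± 0.23 for Uchl1. In both, ASO replicate 3 was far above its group, with 796 CPM of Stmn2 beside 521 to 589 CPM in the other 3 libraries and 304 CPM of Uchl1 beside 131 to 166 CPM.

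ASO knockin was also set against wild type, a comparison that shares its groups with the 2 above. Medulla at 28 weeks gave a call for 1 of 9 genes, against 3.8% of all genes: Nefl was 1.17-fold lower (log2 -0.23 ± 0.06, adjusted p = 0.029), where vehicle knockin was 1.29-fold lower. That call did not stand within either batch alone (adjusted p = 0.21 and 0.3) or without the libraries low in Hox genes (0.056). In pons at 28 weeks none was called by edgeR (4 of the 9 had an unadjusted p under 0.05, DESeq2 called Nefl, and 1.07% of all genes were called), with Nefl at -0.42 ± 0.10 (adjusted p = 0.057), Nefh at -0.38 and Nefm at -0.34. Without vehicle knockin replicate 4, which is in neither group but shares the estimate of the spread, Nefl was called at -0.42 (adjusted p = 0.011). Over the fits that each left out 1 library, from 16 to 1102 of all genes were called in this comparison. Nefl, Nefh, Stmn2 and Uchl1 lay below wild type in all 4 ASO libraries there, as 11.1% of all genes had groups that did not overlap. In cerebellum edgeR called none and 0.0% of all genes, although 3 of the 9 and 2235 of all genes had an unadjusted p under 0.05 and DESeq2 called 419 genes, Gap43 and Uchl1 among them. ASO libraries held 131, 166, 304 and 138 CPM of Uchl1 (log2 0.83 ± 0.23 against wild type) and 140, 181, 213 and 138 CPM of Gap43 (0.47 ± 0.12), all above wild type, where 6.21% of all genes had groups that did not overlap.

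**Figure D3:**
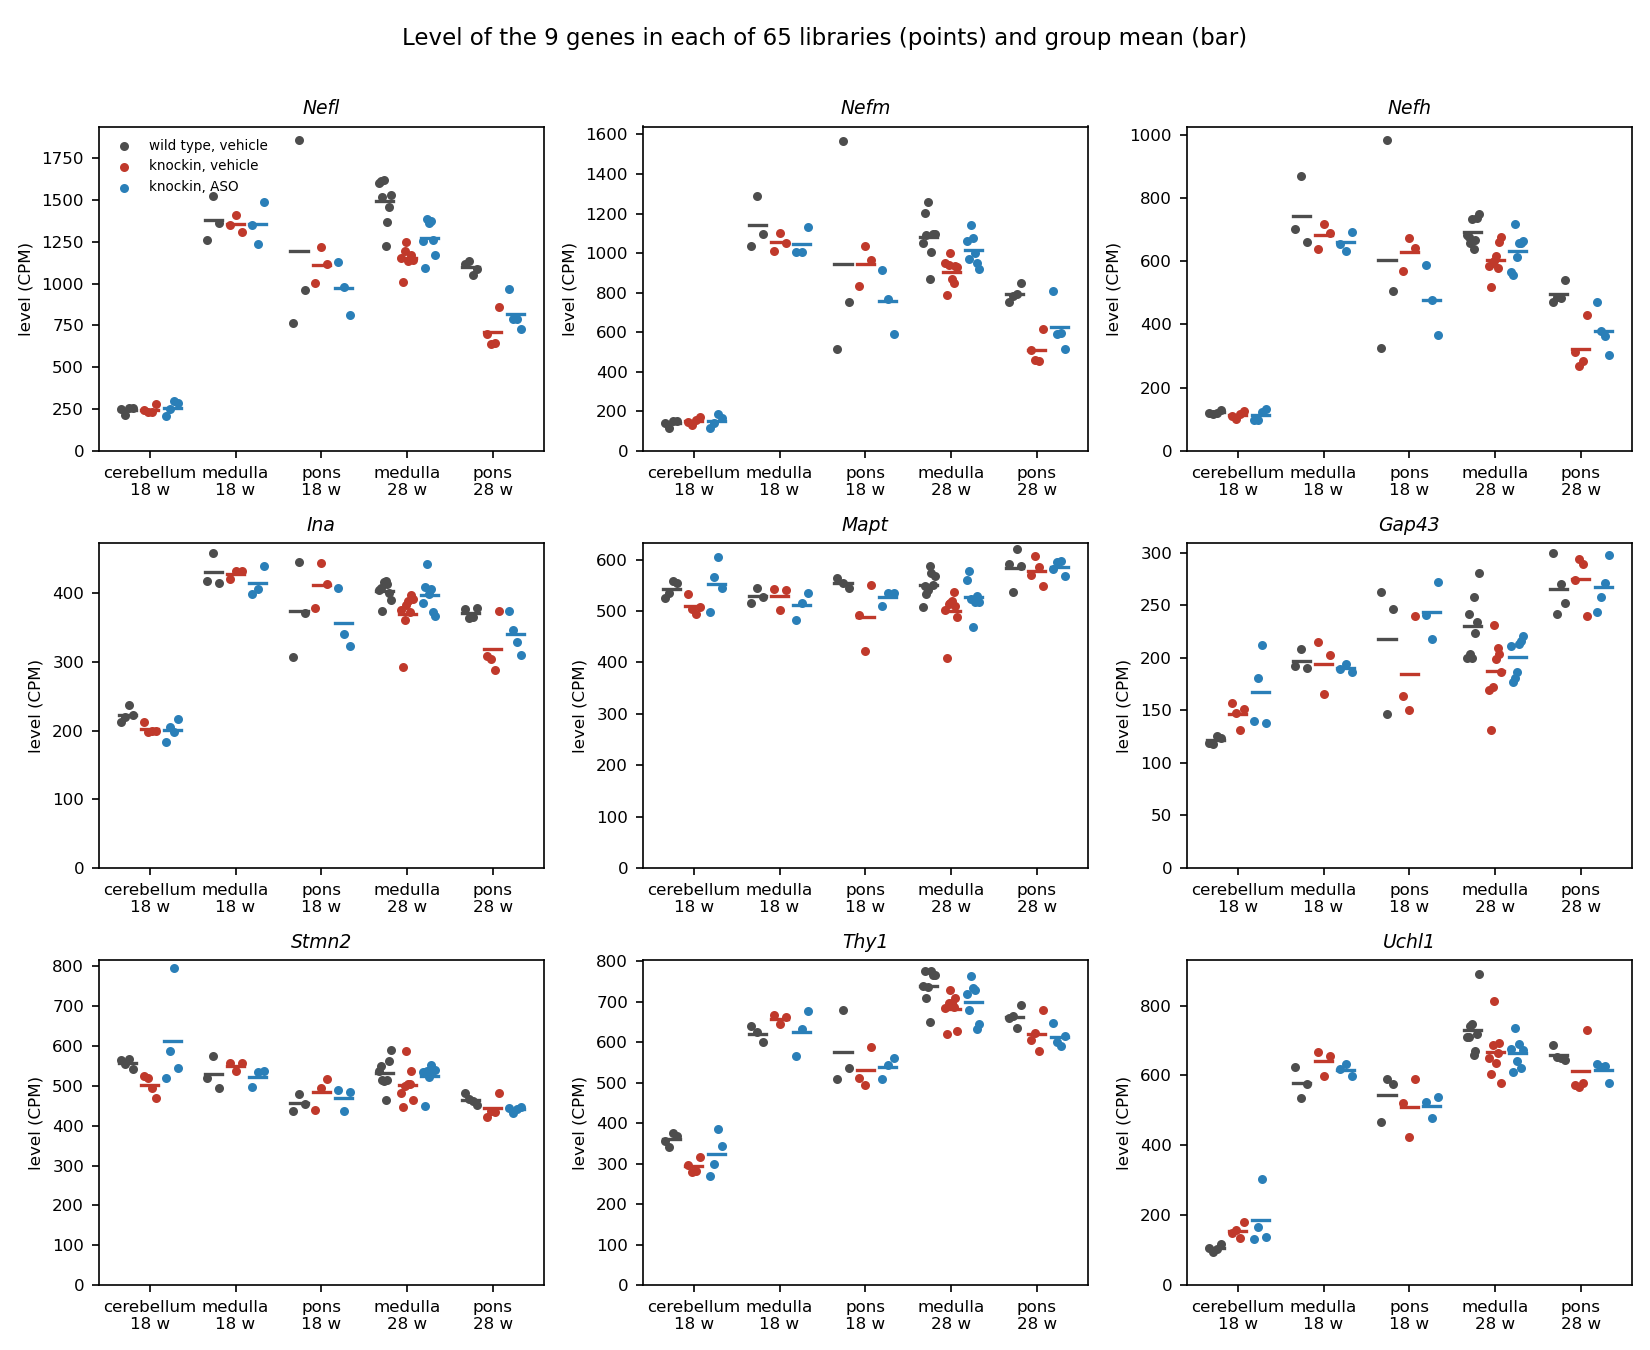
CPM of each gene in every library (points) with the group mean (bar), by region and age in weeks (w), for wild type with vehicle, knockin with vehicle and knockin with ASO. The neurofilament panels show vehicle knockin below wild type in medulla and pons at 28 weeks, the wild type library of pons at 18 weeks that reached 1856 CPM of Nefl, and the low cerebellar levels.

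**Figure D4:**
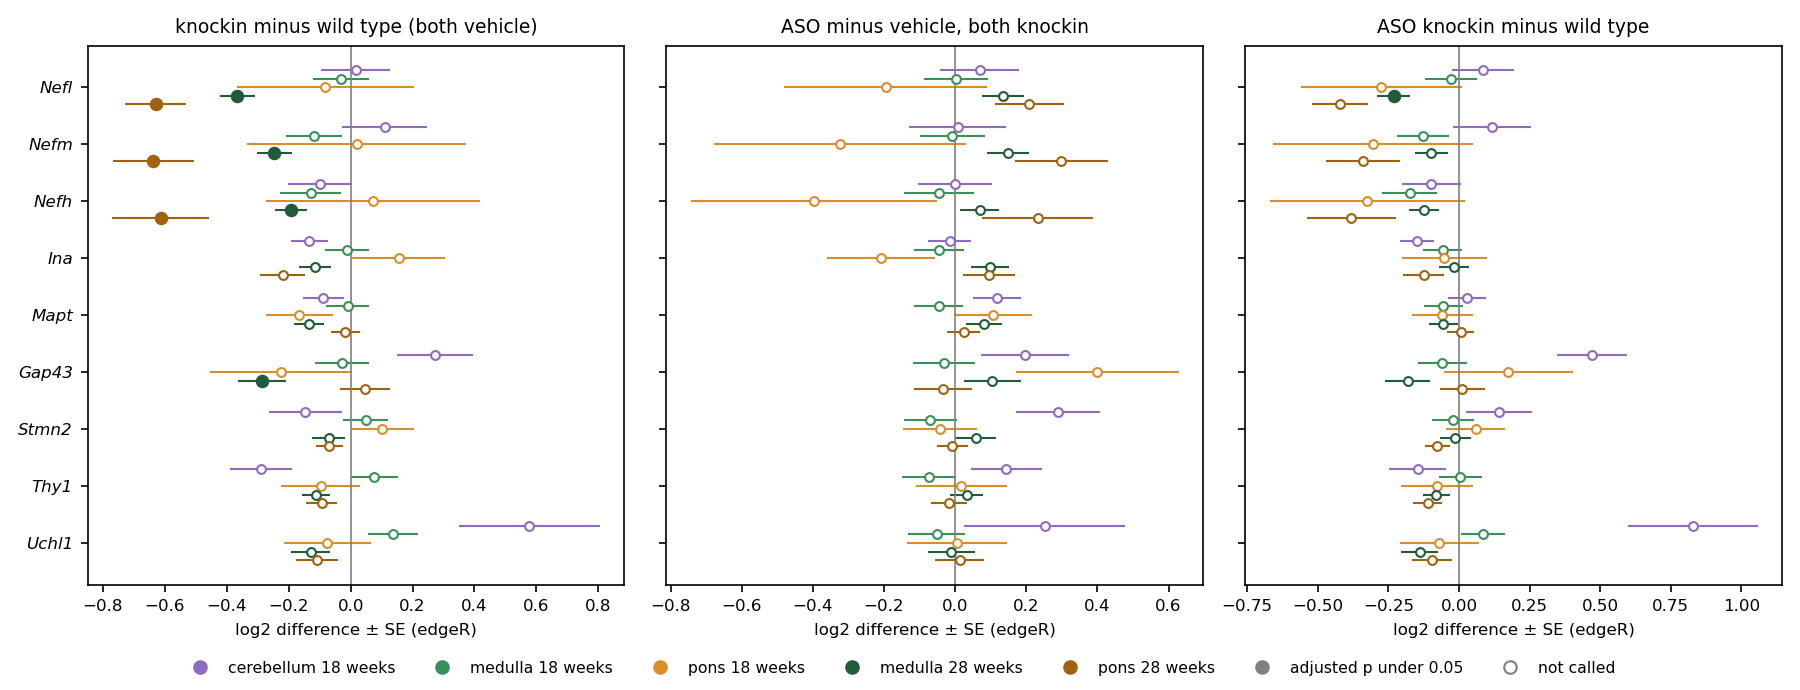
Log2 difference with its standard error from edgeR for each gene in each region and age, for the 3 contrasts. Filled points have an adjusted p under 0.05: Nefl, Nefm and Nefh in medulla and pons and Gap43 in medulla at 28 weeks for vehicle knockin against wild type, and Nefl in medulla at 28 weeks for ASO knockin against wild type.

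Whether a difference depended on region or age was tested with 6 interaction terms, and none of the 9 genes was called in any of them by edgeR or by DESeq2, while from 0 to 4 of the 9 had an unadjusted p under 0.05 in a term in edgeR. At 28 weeks the knockin difference in medulla less that in pons was 0.27 for Nefl (adjusted p = 0.52), 0.40 for Nefm and 0.43 for Nefh (both 0.38), and 0.0184% of all genes were called, with 1753 genes at an unadjusted p under 0.05 and 14 called by DESeq2. Without vehicle knockin replicate 4 of pons, Nefm (0.50) and Nefh (0.59) were called. Over the fits that each left out 1 library, from 0 to 141 of all genes were called for that term. The ASO difference at 28 weeks, medulla less pons, was called for 0.0% of all genes, with 884 at an unadjusted p under 0.05 and 0 by DESeq2. At 18 weeks the knockin difference in cerebellum less that in medulla was called for 0.374% of all genes and that less pons for 0.0513%, with 1548 and 2284 at an unadjusted p under 0.05. Thy1 came nearest there, at -0.39 in cerebellum less medulla (adjusted p = 0.37). With the column-name number as a block, Thy1 was called there at -0.45 (adjusted p = 0.037), and none of the 9 genes was called in the 3 other terms between regions. In the terms with cerebellum, the wild type side of that fit rested on the only number shared with the other region. For Gap43, called lower in medulla and not called in pons, the term at 28 weeks was -0.33 (adjusted p = 0.49). Between ages in medulla Nefl differed by -0.34 (28 less 18 weeks, adjusted p = 0.23), where 0.0046% of all genes were called and 2646 had an unadjusted p under 0.05. Between ages in pons Nefl, Nefm and Nefh differed by -0.53, -0.64 and -0.67, uncalled where 0.0% of all genes were called, 4883 genes had an unadjusted p under 0.05 and DESeq2 called 1651. Without wild type replicate 2 of pons at 18 weeks these 3 were called (adjusted p = 0.038, 0.038 and 0.045), with Nefm at -1.22 and Nefh at -1.21. Over the fits that each left out 1 library, from 0 to 2353 of all genes were called for this term.

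The subunits varied together between libraries of a group. Over 65 libraries, as deviations of log2 CPM from the group mean, Pearson's r was 0.95 between Nefl and Nefm, 0.88 between Nefl and Nefh and 0.89 between Nefm and Nefh. The Nefl and Nefm values share part of their exonic sequence, and all values share library depth and dissection, so these r are descriptions. Ina followed the triplet with r from 0.71 to 0.77 and Thy1 with 0.51 to 0.66, while for Gap43 r was from -0.36 to -0.31. Wild type replicate 2 of pons at 18 weeks weighs heavily on these r. It held 1856 CPM of Nefl (group median 961 CPM) and 146 CPM of Gap43 (group median 246 CPM). The r without that library were not computed, so the negative r of Gap43 may rest on it. Outside the filament genes the closest pairs were Stmn2 with Uchl1 (0.72), Thy1 with Uchl1 (0.64) and Mapt with Gap43 (0.61). The count ratio of Nefl to Nefm was 1.38 ± 0.07 in wild type and 1.27 ± 0.04 in vehicle knockin of medulla at 28 weeks, and 1.39 ± 0.10 and 1.39 ± 0.02 in pons at 28 weeks. In cerebellum it was 1.74 ± 0.08 in wild type.

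Of 14315 genes ranked by how closely they followed the mean of Nefl, Nefm and Nefh within groups (65 libraries), the nearest were Endod1 (r = 0.835), Atpaf1 (0.828), Fbxo40 (0.825), Vamp1 (0.823) and Kctd9 (0.819). Vamp1, a synaptic vesicle protein of fast-firing neurons, was also nearest across all 65 libraries including the regional differences (r = 0.988). Vamp1 was at 281 ± 18.8 CPM in wild type cerebellum at 18 weeks and at 1358 ± 106 CPM in wild type medulla at 28 weeks. That contrast follows from the ranking, which included the regional differences, and these groups also differ in age.

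Around these 9 genes, 99 others of the axonal cytoskeleton were followed in 8 lists. In medulla at 28 weeks 24 were lower and 1 higher in vehicle knockin, 25.3% of those tested beside 19.3% of all genes. By list, 2 of 4 other intermediate filament genes were lower, 5 of 12 tubulins, 3 of 16 microtubule-associated proteins (with 1 higher), 2 of 8 stathmins and collapsin response mediators, 5 of 18 transport motors, 1 of 17 membrane skeleton and node genes, 4 of 15 growth cone genes and 2 of 9 genes of axon survival and ubiquitin. Named examples were Nes, the filament gene nestin (-0.62, adjusted p = 4.4e-04), the alpha-tubulin Tuba8 (-0.44), Map6d1 (-0.37, adjusted p = 5.0e-05), Stmn1 (-0.39, adjusted p = 7.6e-05) and Stmn4 (-0.31, adjusted p = 1.7e-04), the kinesin heavy chain Kif5c (-0.28, adjusted p = 0.0018), and the growth cone genes Nrn1 (-0.30, adjusted p = 1.8e-05) and Basp1 (-0.27).

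In pons at 28 weeks 14 of the 99 were lower and 3 higher, 17.2% beside 9.79% of all genes. Kif5c (-0.46, adjusted p = 0.0015), Map6d1 (-0.46, adjusted p = 0.0023), Stmn1 (-0.25, adjusted p = 0.0031) and Stmn4 (-0.32, adjusted p = 0.0076) were lower there too, as was the intermediate filament gene Synm (-0.30, adjusted p = 0.0040). Marcksl1, a growth cone gene, was higher (0.20), and so was the microtubule minus-end gene Camsap2 (0.15). In cerebellum 1 of 98 tested was higher and 4 were lower, 5.10% beside 2.71% of all genes: Dpysl3 rose by 0.57 (adjusted p = 0.022), and Tuba8 (-0.83, adjusted p = 0.0029), Tubb2b (-0.48), the kinesin light chain Klc2 (-0.30) and Phyhip (-0.40) were lower. ASO against vehicle called 3 of the 99 in medulla at 28 weeks, 3.03% beside 1.69% of all genes, all higher: Kif5c (0.25), the dynein adaptor Bicd2 (0.17) and Map6d1 (0.23).

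The same lists were read between regions in wild type. At 18 weeks 61 of these 99 genes were lower and 16 higher in cerebellum than in medulla, 77.8% beside 59.2% of all genes. The peripheral filament gene Prph (-7.06), Sncg (-4.33), Basp1 (-3.57), Dpysl3 (-2.64), Map1b (-2.18) and the kinesin Kif5a (-1.42) lay with the neurofilament chains on the side of the medulla. Tuba8 (2.89), Phyhip (2.37) and Dpysl4 (2.10) were higher in cerebellum.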

How the data were processed

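The authors deposited a table of raw whole-number counts per gene. Per the submitters' processing notes, the tools were CASAVA 1.8, HISAT2 2.0.2, GRCm38, featureCounts (Subread), R 3.3.3 and DESeq2 1.14.1; extraction used TRIzol and stranded TruSeq libraries, per the labels' protocols. Strand and pair settings of the counting are not given in the sources used here, and 70.0% to 78.6% of counts from 1 to 20 were even, so pairs may count as 2 reads. GENCODE vM21 named 49325 IDs; the 345 unnamed held 0.0701% of counts. Counts were tested with edgeR 4.0.16 (limma 3.58.1, R 4.3.3): TMM, filterByExpr at a minimum count of 10, robust quasi-likelihood fits, Benjamini-Hochberg over all genes. The 3 groups of a region and age shared a model, with batch for medulla at 28 weeks. CPM use TMM over 65 libraries and 22770 genes (pseudocount 0.5 on the log2 scale); RPKM use union exon length. Alternatives were DESeq2 1.42.0, RLE scaling, no filter, the 2 groups alone, single batches, blocks and left-out libraries. The procedure was tested on simulated data. The members, lists and named-gene rule (Atxn1, the 9 genes, up to 2 called genes per list and comparison, the 5 nearest genes) were chosen with earlier results of these data known. Lists without a result in the text (granule cell, microglia, choroid plexus) had 2, 0 and 0 genes called in medulla and 3, 0 and 0 in pons at 28 weeks, knockin against wild type.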

Additional observations from a re-analysis of the deposited data

Results flagged for a closer look

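In groups of 4 to 10 libraries, the highest or lowest library was set against the others with Dixon's test. It singled out a library in 9 of 81 tests of a gene in a group, where chance gives about 1 in 20; 1 library was singled out for 2 genes. In cerebellum Nefl was lowest in wild type replicate 2, at 217 CPM beside 254 to 256 CPM, and Ina was highest in vehicle knockin replicate 1, at 212 CPM beside 199 to 200 CPM. In medulla at 28 weeks vehicle knockin replicate 2 was lowest for both Ina, at 292 CPM beside 361 to 398 CPM, and Mapt, at 409 CPM beside 488 to 537 CPM. ASO replicate 2 of medulla at 28 weeks was lowest for Stmn2, at 450 CPM beside 523 to 551 CPM, and wild type replicate 8 was highest for Uchl1, at 889 CPM beside 659 to 748 CPM. Uchl1 stood out once in each group of pons at 28 weeks: highest in wild type replicate 1 at 688 CPM beside 646 to 652 CPM, highest in vehicle knockin replicate 4 at 729 CPM beside 567 to 577 CPM, and lowest in ASO replicate 4 at 578 CPM beside 624 to 634 CPM.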

How the results depend on the processing

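Of 5031 recomputed differences of single genes, 4941 kept their side of the threshold, 39 lost a call, 51 gained one, and 0 called differences changed sign; 215 uncalled ones did. Of 559 recomputed counts of called genes among the 9, 25 moved by more than 1.5 times. DESeq2 called 2 for ASO knockin against wild type in cerebellum and 1 in pons at 28 weeks. Fitting only the 2 groups compared called 5 for knockin against wild type in cerebellum and 1 for ASO knockin against wild type in pons at 28 weeks. In medulla at 28 weeks ASO knockin against wild type fell to 0 with the replicate block, in batch 1 alone, in batch 2 alone and without the libraries low in Hox genes (chosen after seeing the data). Knockin against wild type in medulla fell to 1 in batch 1 alone, and wild type medulla against pons at 28 weeks rose to 7 there. A block of the number in the column names that recurs across regions (chosen after seeing the data) gave 1 call in the interaction of cerebellum and medulla, Thy1 (-0.45, adjusted p = 0.037). The wild type side of that term rested on the only number shared by those regions.

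Over 402 fits that each left out 1 library, the count of called genes ranged from 0 to 3 for knockin against wild type in cerebellum (3 without ASO replicate 3), from 4 to 6 in medulla at 28 weeks and from 2 to 7 in pons at 28 weeks (7 without vehicle knockin replicate 4). For ASO knockin against wild type it ranged from 0 to 1 in cerebellum, medulla at 28 weeks and pons at 28 weeks: Gap43 was called without cerebellum ASO replicate 4, Nefl of medulla was lost without ASO replicate 2, 6 or 7 or wild type replicate 4, 7 or 8, and Nefl of pons was called without ASO replicate 1 (adjusted p = 0.032) or vehicle knockin replicate 4 (0.011). In wild type it stayed at 7 for cerebellum against medulla and 8 against pons, and ranged from 0 to 4 for medulla against pons at 18 weeks and from 3 to 5 at 28 weeks. It ranged from 0 to 2 for the interaction of medulla and pons, from 0 to 3 for that of age in pons, and stayed at 0 elsewhere.

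Same-numbered libraries within a region showed no shared deviation (median correlation of deviations from -0.31 to 0.10). Single pairs in cerebellum ran from -0.53 to 0.50. Deviations from the means of groups of 3 to 8 libraries cannot exclude that the replicate numbers pair libraries. Libraries of 2 regions with the same number in the column names had median correlations of 0.37 (cerebellum and medulla), 0.05 (cerebellum and pons), 0.19 (medulla and pons at 18 weeks) and 0.23 (at 28 weeks), against -0.05, 0.01, -0.05 and -0.04 for other numbers; the lowest pairs were at 0.04, -0.03, -0.14 and -0.22. With the replicate block 4 genes were called for knockin against wild type in medulla and 2 in pons at 28 weeks, Nefh being lost (adjusted p = 0.057). DESeq2 called more genes over the whole table: 1290 against 552 for knockin and wild type cerebellum, 3006 against 2002 for pons at 28 weeks, and 620 against 19 for ASO and vehicle in pons. Each of the 9 genes had at least 7027 counts in every library, and the precision is set by the spread over groups of 3 to 8 libraries.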
